A study of Mus musculus with 13 samples.

Results

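The genes described here are the nuclear-coded subunits of oxidative phosphorylation, measured by RNA-Seq in microglia of PS2APP mice with and without Trem2. They were chosen by name: protein-coding mouse genes whose symbols start with Ndufa, Ndufb, Ndufc, Ndufs, Ndufv, Sdha to Sdhd, Uqcr, Cox4i, Cox5 to Cox8 or Atp5, leaving out the assembly factors named Ndufaf and Sdhaf and symbols with -ps. This gave 85 of the 52636 genes listed for each mouse, with 38 in complex I, 4 in complex II, 8 in complex III, 18 in complex IV and 17 in complex V. A further 4 symbols that fit the name rule, Ndufs6b, Cox6c2, Ndufb4c and Ndufa11b, were left out because the annotation calls them processed pseudogenes. The rule follows symbols and not function: Cyc1, the cytochrome c1 of complex III, has another name and was not a member, Ndufa4 carries a complex I name although its protein belongs to complex IV, and Atp5s is a factor of the ATP synthase rather than a subunit.

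Oxidative phosphorylation takes place on the inner mitochondrial membrane, where complexes I and II pass electrons to ubiquinone, complex III passes them on to cytochrome c, complex IV hands them to oxygen, and complex V uses the resulting proton gradient to make ATP. Complexes I, III, IV and V are built from subunits coded in the nucleus together with a few coded in the mitochondrial genome, and complex II is nuclear-coded throughout. Some subunits of complex IV exist as tissue isoforms, such as the heart and skeletal muscle forms of COX6A, COX7A and COX8. Microglia use both glycolysis and oxidative phosphorylation for ATP.

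The cells were CD11b+ CD45+ Ly6g- Ccr2- cells sorted from cortex and hippocampus of mice aged 14 to 15 months, a gate that also admits perivascular macrophages. There were 7 PS2APP;Trem2wt mice, of which 5 were female and 2 male, and 6 PS2APP;Trem2ko mice, of which 5 were female and 1 male, with 1 library per mouse. Both genotypes carried the human mutant presenilin 2 and amyloid precursor protein transgenes in the homozygous state, and the knockouts carried the Trem2tm1(KOMP)Vlcg null allele, made on C57BL/6N and crossed into the PS2APP line, which is on C57BL/6J. No mouse without the transgenes is part of these libraries, so every value below comes from a brain with the amyloid model. Levels are given in nRPKM, the authors' RPKM (reads scaled to transcript length and library size) adjusted by a size factor, which is meant to set transcripts of different length on 1 scale. The gene lengths behind it are not given in the sources used here. Orders of levels and shares between different genes rest on those lengths. Total counts per mouse ranged from 26120961 to 120569609, and 3 counts, taken as the floor of detection, correspond to 0.0249 to 0.115 CPM (counts scaled to library size), for counting error only. The 3 libraries above 100000000 counts (PS2APP;Trem2ko replicates 1 and 5 and PS2APP;Trem2wt replicate 7) stood apart from the others in depth. Trem2 stood at 1044 ± 141 nRPKM (SD, n = 7) in PS2APP;Trem2wt cells and 0.887 ± 0.734 (SD, n = 6) in PS2APP;Trem2ko cells, a log2 fold change of -10.29 (SE 0.46). The summed nRPKM of 8 microglia markers lay between 12337 and 14849 in PS2APP;Trem2wt and between 12280 and 14092 in PS2APP;Trem2ko mice, whereas 4 neuron markers summed to at most 9.94 and 5 perivascular macrophage markers to at most 28.8 in any mouse. The sum over 4 neutrophil markers reached 117 in 1 PS2APP;Trem2wt mouse and 17.2 in PS2APP;Trem2ko mice.

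Many subunit genes have processed pseudogenes, and the authors counted reads that aligned to a unique place. Of the 85 genes, 36 had at least 1 stretch of 50 transcript bases, the length of a read, also found in a transcript of a gene elsewhere. Elsewhere means at a position that does not overlap the member. Stretches shared with a gene that overlaps the member were counted apart. They made up 39.8% of the stretches of Atp5o, 31.6% of those of Ndufb6 and 29.2% of those of Cox5a. The coding sequences of 3 short subunits show the range. Atp5l and Atp5e code for the small g and epsilon subunits of the ATP synthase, and Cox7c for a small subunit of complex IV. Capitals mark bases that lie in a 50-base stretch found in another gene's transcripts, and lower case marks bases found in no other. Positions are those of the coding sequence in GRCm38 (GENCODE M21), introns included, all 3 on the minus strand: Atp5l at chr9:44913380-44920661 (the first 300 coding bases), Cox7c at chr13:86045756-86046675 and Atp5e at chr2:174462506-174463996.
Atp5l: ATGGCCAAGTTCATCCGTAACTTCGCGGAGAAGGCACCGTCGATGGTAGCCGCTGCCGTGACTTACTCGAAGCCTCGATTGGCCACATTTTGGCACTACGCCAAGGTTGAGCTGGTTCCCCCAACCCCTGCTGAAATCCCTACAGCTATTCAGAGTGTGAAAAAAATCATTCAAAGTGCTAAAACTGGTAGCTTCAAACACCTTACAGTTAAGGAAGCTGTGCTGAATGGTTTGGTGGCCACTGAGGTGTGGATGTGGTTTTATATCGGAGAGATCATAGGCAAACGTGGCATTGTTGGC
Cox7c: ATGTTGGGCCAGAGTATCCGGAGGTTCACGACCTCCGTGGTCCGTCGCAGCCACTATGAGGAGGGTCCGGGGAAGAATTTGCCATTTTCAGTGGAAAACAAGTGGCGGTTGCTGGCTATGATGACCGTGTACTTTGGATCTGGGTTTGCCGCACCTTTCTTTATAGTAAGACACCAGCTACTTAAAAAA
Atp5e: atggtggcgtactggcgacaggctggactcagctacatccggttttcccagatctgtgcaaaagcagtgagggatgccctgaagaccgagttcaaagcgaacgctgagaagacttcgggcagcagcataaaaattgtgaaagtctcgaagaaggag
Every printed base of Atp5l and Cox7c was shared, with 13 and 3 other genes respectively (12 and 3 of them pseudogenes), and no base of Atp5e was. Atp5l had counts of 0 to 19 per mouse and a mean of 0.0810 nRPKM, Cox7c 4.49 nRPKM, and Atp5e 30.5 nRPKM.

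Over the whole set, the 49 genes with no stretch shared elsewhere had a median of 28.9 nRPKM. The 43 of these that passed the expression filter had a median of 35.9. The 11 genes with more than 20% of their 50-base stretches shared elsewhere had a median of 4.49 nRPKM, and 9 of the 11 were under 10 nRPKM. Besides Atp5l (68.5% shared) these were Uqcrb (43.2%), Ndufb4 (37.0%), Atp5h (36.9%), Atp5g2 (36.7%), Ndufs3 (35.8%), Ndufa12 (26.2%), Cox7c (23.0%), Atp5f1 (22.5%), Cox5b (21.8%) and Ndufs5 (21.7%). Their levels, and their places in any order of levels, are therefore uncertain. The share of reads lost to copies was not measured in these files.

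**Figure D1:**
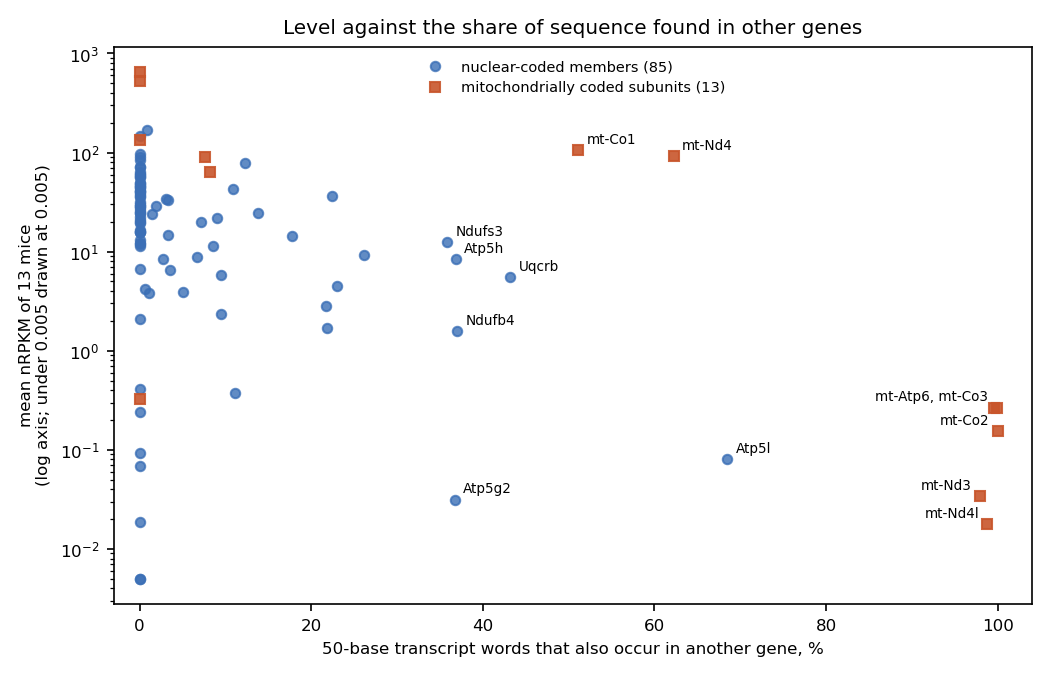
Mean nRPKM over 13 mice (log axis) against the percentage of a gene's 50-base transcript stretches that also occur in a gene elsewhere, for the 85 nuclear-coded members and the 13 mitochondrially coded subunits. Stretches shared only with an overlapping gene are not counted. Atp5l (68.5% shared) sits at 0.0810 nRPKM, and 5 mitochondrially coded genes with nearly all of their sequence shared sit under 0.3 nRPKM.

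Levels of the 85 genes ran from 0 to 170 nRPKM, with 58 above 10 and 10 under 1. Complex II had the highest median, 71.7 nRPKM over 4 genes, against 31.7 in complex III, 24.8 in complex V, 20.4 in complex I and 9.36 in complex IV, where 6 of 18 genes were under 1 nRPKM. The highest level was that of Atp5b, the catalytic beta subunit of the ATP synthase (chromosome 10, 128083273 to 128090391). In PS2APP;Trem2wt mice it had a lowest, median and highest nRPKM of 163, 176 and 191, and in PS2APP;Trem2ko mice 150, 163 and 172. Next came Cox4i1, the ubiquitous form of COX4 (chromosome 8, 120668222 to 120674207), with 120, 164 and 172 nRPKM in PS2APP;Trem2wt and 115, 131 and 171 in PS2APP;Trem2ko mice. The ranges of Atp5b and Cox4i1 overlapped in both genotypes, and within the same mouse Atp5b was the higher in 12 of 13.

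In complex III the highest was Uqcrc1, a core protein, at 96.5 ± 5.4 nRPKM (SD, n = 7) in PS2APP;Trem2wt cells and 99.2 ± 6.8 (SD, n = 6) in PS2APP;Trem2ko cells. In complex II it was Sdha, the flavoprotein of succinate dehydrogenase, at 89.8 ± 7.8 and 89.5 ± 4.6 nRPKM (SD, same mice). In complex I it was Ndufb9, an accessory subunit, at 64.4 ± 8.5 and 56.3 ± 8.3 nRPKM, of whose 50-base stretches 23.4% come from sequence where it overlaps a neighbouring gene. Ndufb9 was followed by Ndufs8, a core subunit that carries iron-sulfur clusters, with a mean of 59.9 nRPKM over all mice, and Ndufb9 was the higher of the pair in 7 of 13 mice.

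**Figure D2:**
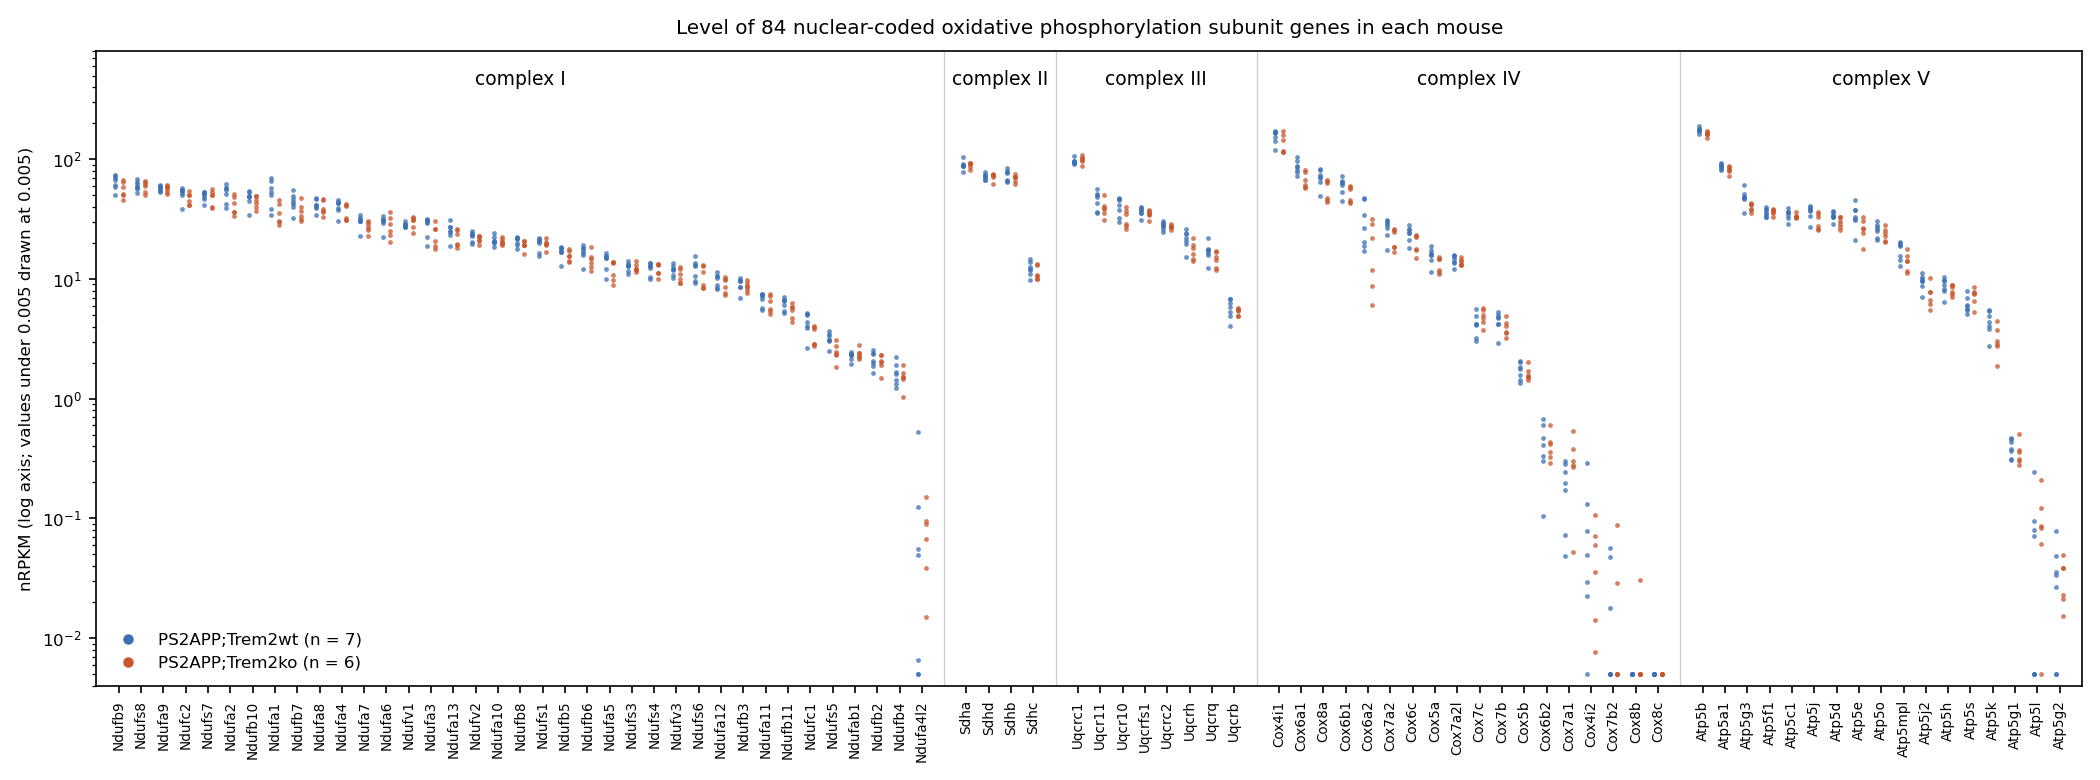
nRPKM (log axis) of 84 of the 85 genes in each mouse, ordered by mean level within complexes I to V, with 7 PS2APP;Trem2wt mice in blue and 6 PS2APP;Trem2ko mice in orange. Most genes lie between 1 and 170 nRPKM, and the isoform genes of complex IV at the right of its panel fall to 0.

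Among the isoform genes, 1 form carried nearly all of the signal in most pairs. Cox4i1 held 99.95% of the summed nRPKM of Cox4i1 and the hypoxia-linked lung form Cox4i2, Cox6b1 held 99.3% of Cox6b1 and the testis form Cox6b2, Cox7b held 99.6% of Cox7b and Cox7b2, and Ndufa4 held 99.8% of Ndufa4 and Ndufa4l2. Cox8c had 0 counts in 13 of 13 mice, and Cox8b, the heart and muscle form, had 1 count in 1 mouse and 0 in 12, both under the floor of 3 counts. Among the COX7A genes, Cox7a2 held 62.7%, Cox7a2l 36.7% and the muscle form Cox7a1 0.623%. Of the 3 genes for subunit c, the ring that turns within the ATP synthase, Atp5g3 held 99.1%, although Atp5g2 shares 36.7% and Atp5g1 11.1% of its 50-base stretches with other genes. Counts per mouse, which are not scaled to length, ran from 58 to 442 for Atp5g1 and from 1293 to 4625 for Atp5g3.

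Cox6a2, the heart and skeletal muscle form of COX6A (chromosome 7, 128205435 to 128206387), held a larger share of its pair than the minor gene of any other pair above. It was present at 30.1 ± 12.9 nRPKM (SD, n = 7) in PS2APP;Trem2wt cells and 18.1 ± 10.8 (SD, n = 6) in PS2APP;Trem2ko cells, which was 24.8% ± 6.6 and 19.8% ± 8.5 of the summed Cox6a1 and Cox6a2 level. In the 7 PS2APP;Trem2wt mice its lowest, median and highest nRPKM were 17.2, 26.4 and 47.6, and in the 6 PS2APP;Trem2ko mice 6.01, 16.9 and 31.6. Counts were 418 to 3259 per mouse, far above the floor, and none of its 50-base stretches occurs outside the gene it overlaps. The gene lies inside the span of Itgad on the opposite strand, and 3.33% of its stretches come from that overlap. Itgad itself had counts of 1 to 94 and 0.0666 ± 0.0437 nRPKM (SD, n = 7) in PS2APP;Trem2wt cells. Use of the strand in counting is not given in the sources used here.

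The main comparison asked whether any of these genes differed between PS2APP;Trem2ko and PS2APP;Trem2wt microglia. Of the 85 genes, 77 passed edgeR's expression filter. Ndufa4l2, Cox4i2, Cox7a1, Cox7b2, Cox8b, Cox8c, Atp5g2 and Atp5l did not. Of the 77, 0 were higher and 0 were lower at an adjusted p of at most 0.05 (edgeR quasi-likelihood test, Benjamini-Hochberg over 17086 genes), where 0.503% of all tested genes were higher and 1.53% lower. At an unadjusted p of 0.05 or less, 19 of the 77 (24.7%) were lower and 0 higher, against 7.56% lower and 7.29% higher over all tested genes. By voom+limma 0 were called, and by DESeq2 2 were called lower, Ndufa1 and Cox6a1, with adjusted p-values of 0.0204 and 0.0227. The share of all tested genes that DESeq2 called is not given here, so its calls cannot be set against that share. In 0 of the 77 did the normalized counts of the genotypes fail to overlap, where 1.64% of all tested genes did not overlap in either direction. The log2 fold change was negative in 69 and positive in 8 of the 77, with a median of -0.13, beside 0.00 over all tested genes, of which 49.3% were negative. No member moved by as much as 2-fold. In bulk RNA from a sort, less RNA per cell and a changed mix of cells cannot be told apart.

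**Figure D3:**
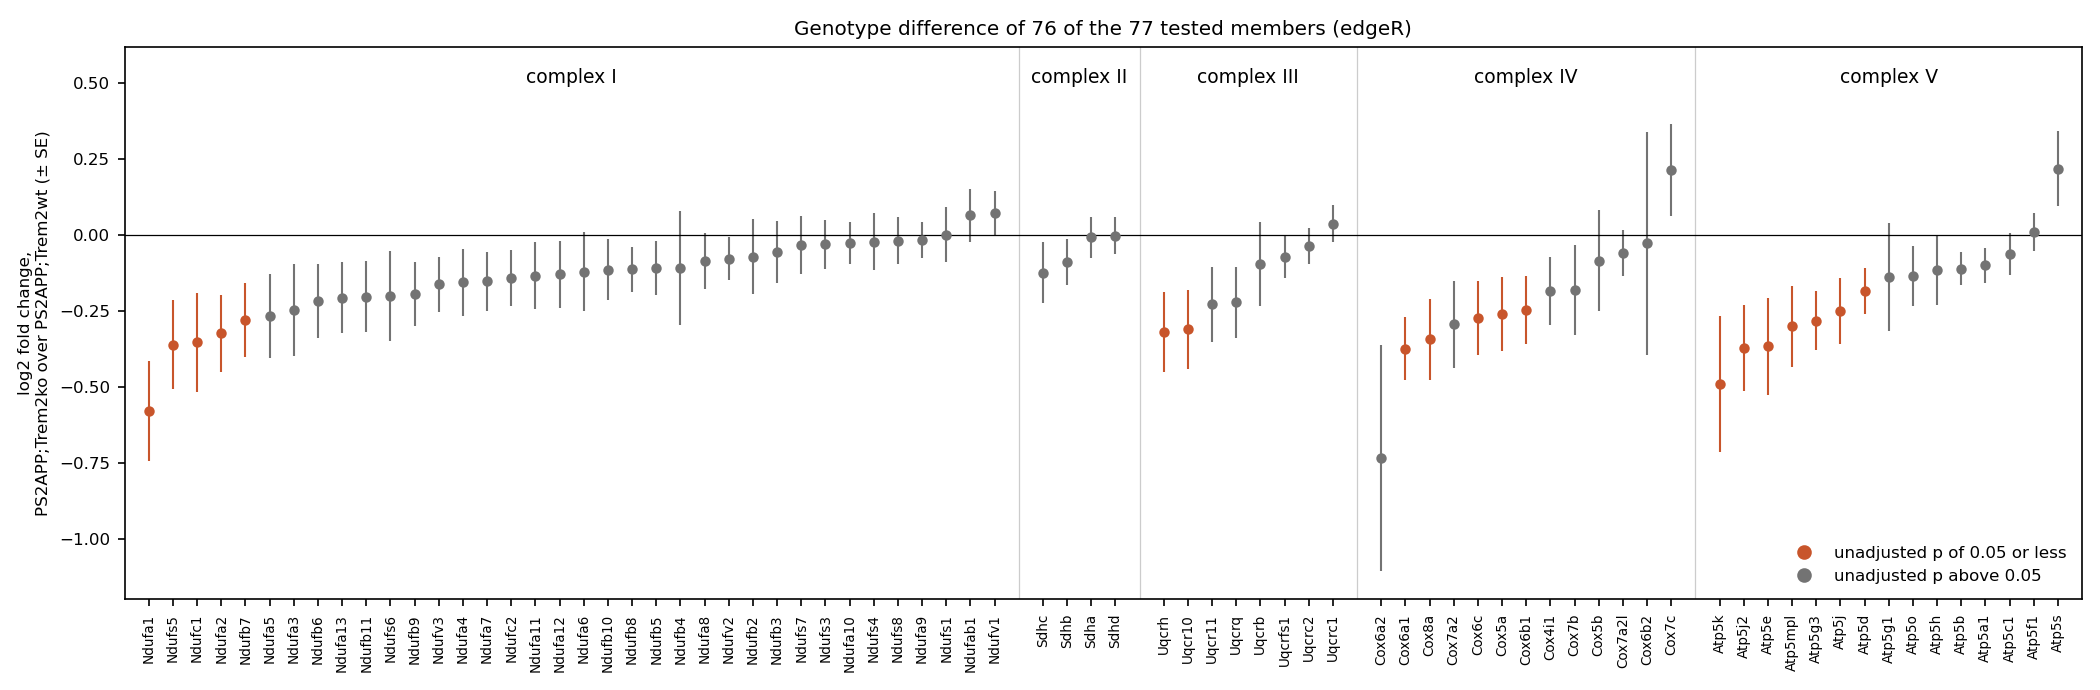
Log2 fold change of PS2APP;Trem2ko over PS2APP;Trem2wt mice with its SE for 76 of the 77 tested members, ordered within each complex; orange points have an unadjusted p of 0.05 or less, and none passes after adjustment. Points below 0 (69 in all) are lower in PS2APP;Trem2ko mice, and the widest error is that of Cox6a2.

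The deepest libraries were low for these genes. Total counts had a median of 55371726 in PS2APP;Trem2ko and 35201380 in PS2APP;Trem2wt mice. Each mouse was placed by the median, over the 77 genes, of log2 CPM less the gene's mean over the 13 mice. The 3 libraries above 100000000 counts lay between -0.24 and -0.17, and PS2APP;Trem2ko replicate 4, with 48886959 counts, lay lowest at -0.26, while the other 9 lay between 0.00 and 0.19. Among these 9 were the next deepest, PS2APP;Trem2wt replicate 3 (79883820 counts) at 0.10 and PS2APP;Trem2ko replicate 2 (61856493 counts) at 0.08. Over all mice this position was 0.07 ± 0.14 (SD, n = 7) in PS2APP;Trem2wt cells and -0.09 ± 0.15 (SD, n = 6) in PS2APP;Trem2ko, a difference about as large as the spread within a genotype. Among the 10 libraries under 100000000 counts the means were 0.12 (n = 6) and -0.03 (n = 4), and the difference was -0.15. Among the deep libraries the 2 PS2APP;Trem2ko mice lay 0.02 above the 1 PS2APP;Trem2wt mouse. In the fit without the deep libraries the median log2 fold change was -0.13 with 71 of 77 negative, and 10 were lower at an unadjusted p of 0.05 or less. With the log2 total count as a covariate the median was -0.08 with 65 negative, and 2 were lower at an unadjusted p of 0.05 or less. With all libraries thinned to the smallest the median was -0.14 with 69 negative and 17 at an unadjusted p of 0.05 or less. None of these 3 fits called a member at an adjusted p of 0.05 or less (edgeR), with smallest adjusted p-values of 0.185, 0.202 and 0.0673.

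**Figure D4:**
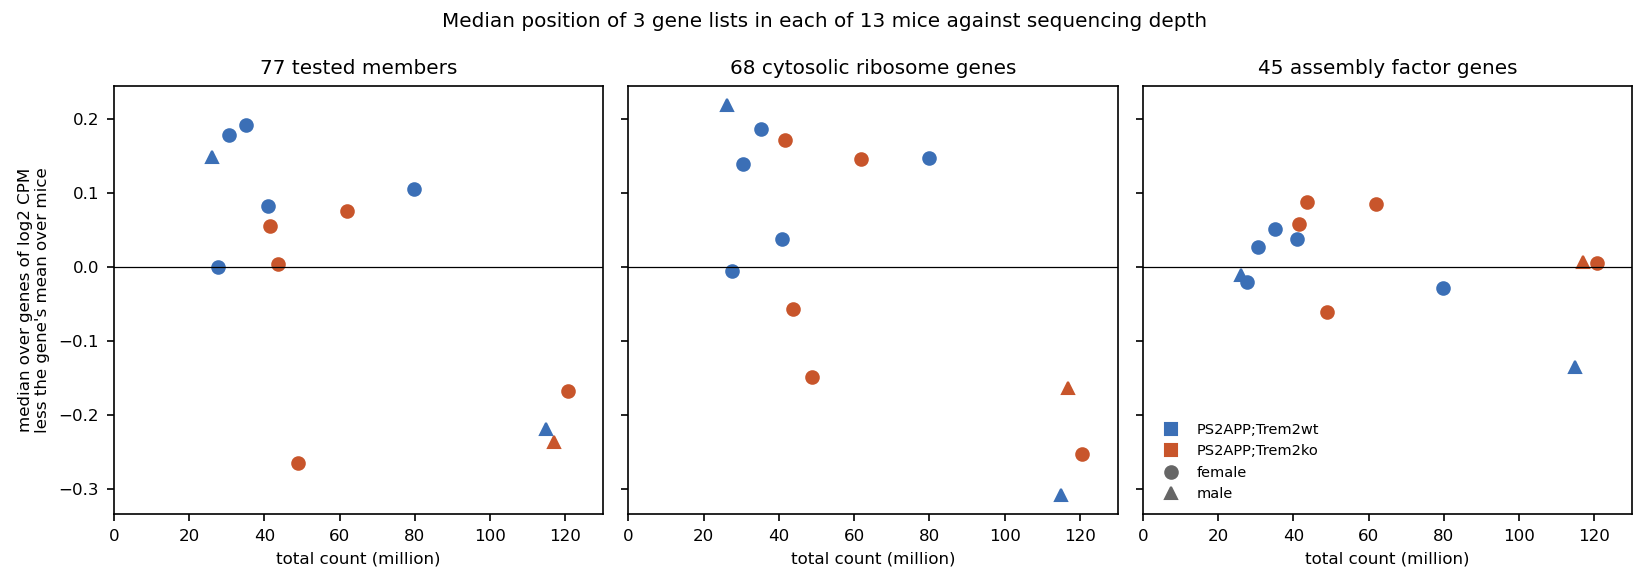
Median position of 77 tested members, 68 cytosolic ribosome genes and 45 assembly factor genes in each of 13 mice (log2 CPM less the gene's mean over mice) against the total count; color gives the genotype and shape the sex. The 3 deepest libraries lie at -0.17 or lower for the members and at -0.16 or lower for the cytosolic ribosome.

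By complex, the numbers with an unadjusted p of 0.05 or less were 5 of 37 in complex I, 0 of 4 in complex II, 2 of 8 in complex III, 5 of 13 in complex IV and 7 of 15 in complex V, all lower, and 0 were called after adjustment (edgeR). The median log2 fold changes were -0.12, -0.05, -0.16, -0.25 and -0.14 in the same order.

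In complex I, which takes electrons from NADH, the smallest p was that of Ndufa1, a small membrane-arm subunit needed to build the complex (chromosome X, 37187588 to 37191163). Its lowest, median and highest nRPKM were 34.3, 53.5 and 69.3 in the 7 PS2APP;Trem2wt mice and 28.1, 32.9 and 46.0 in the 6 PS2APP;Trem2ko mice. Of the PS2APP;Trem2wt mice 5 lay above all PS2APP;Trem2ko mice, and the other two, replicates 4 and 7, lay among them. The log2 fold change was -0.58 (SE 0.17), a level 33.1% lower, with an unadjusted p of 0.00308 and an adjusted p of 0.0937 in edgeR. Its adjusted p ranged from 0.0204 to 0.223 over the alternatives and fell to 0.0438 without PS2APP;Trem2wt replicate 4. The other members at an unadjusted p of 0.05 or less were Ndufa2, Ndufs5, Ndufb7 and Ndufc1, all of them accessory subunits.

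The core of the complex carries out the electron transfer, and 6 of its subunits, Ndufs1, Ndufs3, Ndufs7, Ndufs8, Ndufv1 and Ndufv2, were set apart after their values were seen. Their log2 fold changes ran from -0.08 to 0.07 with a median of -0.02, and 2 of 6 were positive. A further 30 tested genes placed in complex I by name, Ndufa4 among them, had a median of -0.15, and 29 of 30 were negative. Ndufv1, the NADH-binding subunit, had the largest value of the 6, 0.07 (SE 0.07 and adjusted p = 0.704 in edgeR), with 28.2 ± 1.2 nRPKM (SD, n = 7) in PS2APP;Trem2wt cells and 29.7 ± 3.5 (SD, n = 6) in PS2APP;Trem2ko cells. Transcripts of the 6 core genes were longer, with a median of 1354 bases against 694 in those 30 genes. The part of length in this difference was not tested.

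Complex II, the succinate dehydrogenase that links the citric acid cycle to the respiratory chain, had the median nearest to 0. Sdhc, its membrane anchor, had the smallest p of the 4, with 9.79, 12.03 and 14.7 nRPKM as the lowest, median and highest PS2APP;Trem2wt value and 9.98, 10.7 and 13.2 in PS2APP;Trem2ko. Its log2 fold change was -0.12 (SE 0.10 and adjusted p = 0.615 in edgeR), and that of Sdha was -0.01 (SE 0.07 and adjusted p = 0.974). For Sdha, 2 SE on either side of the estimate spans -0.14 to 0.13 on the log2 scale.

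Complex III moves electrons from ubiquinol to cytochrome c. Its smallest p was that of Uqcrh, the hinge protein (chromosome 4, 116066965 to 116075071), with 15.3, 22.2 and 26.3 nRPKM in PS2APP;Trem2wt and 14.0, 17.2 and 22.1 in PS2APP;Trem2ko mice. In 4 PS2APP;Trem2wt mice it was above every PS2APP;Trem2ko mouse. The log2 fold change was -0.32 (SE 0.13 and adjusted p = 0.265 in edgeR). Uqcr10, another small subunit, had a value of -0.31 (SE 0.13 and adjusted p = 0.271). The core proteins Uqcrc1 and Uqcrc2 had 0.04 (SE 0.06) and -0.04 (SE 0.06).

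In complex IV, the cytochrome c oxidase, whose catalytic subunits are mitochondrially coded, Cox6a1 had the smallest p of all 77 members. This is the ubiquitous form of COX6A, a regulatory subunit (chromosome 5, 115345642 to 115348981). Its lowest, median and highest nRPKM were 72.0, 87.0 and 105 in PS2APP;Trem2wt mice and 57.8, 64.1 and 81.2 in PS2APP;Trem2ko mice. The values of 4 PS2APP;Trem2ko mice were below all PS2APP;Trem2wt values, and replicates 2 and 3 were within their range. The log2 fold change was -0.37 (SE 0.10), a level 22.8% lower, with an unadjusted p of 0.00261 and an adjusted p of 0.0851 in edgeR. Over the alternatives its adjusted p lay between 0.0227 and 0.238, and it was 0.0483 without PS2APP;Trem2ko replicate 2. Of its 50-base stretches 12.3% occur in another gene.

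Cox8a, Cox6c, Cox6b1 and Cox5a, all nuclear-coded subunits that surround the catalytic core, were the other members of complex IV at an unadjusted p of 0.05 or less, with log2 fold changes of -0.34, -0.27, -0.25 and -0.26. Cox6a2 had the most negative estimate of the whole set, -0.74 (SE 0.37 and adjusted p = 0.379 in edgeR), and only 3 of its 6 PS2APP;Trem2ko mice lay below all PS2APP;Trem2wt mice. PS2APP;Trem2ko replicates 4, 5 and 6 were at 8.66, 6.01 and 11.8 nRPKM and replicates 1, 2 and 3 at 22.0, 31.6 and 28.7. Its estimate ranged from -0.97 to -0.49 over the alternatives. Cox7c stood at 4.86 ± 0.73 nRPKM (SD, n = 6) against 4.18 ± 0.89 (SD, n = 7), in PS2APP;Trem2ko and PS2APP;Trem2wt cells in turn, with a log2 fold change of 0.22 (SE 0.15 and adjusted p = 0.551 in edgeR), but is among the genes whose coding sequence is shared with copies.

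In complex V, the ATP synthase, Atp5g3 had the smallest p. Its nRPKM was 35.4, 48.0 and 61.4 at the lowest, median and highest in PS2APP;Trem2wt and 35.8, 39.8 and 42.9 in PS2APP;Trem2ko mice. Of the 7 PS2APP;Trem2wt mice 6 were above every PS2APP;Trem2ko mouse, and the remaining one, the deep replicate 7, was below them all. The log2 fold change was -0.28 (SE 0.10 and adjusted p = 0.173 in edgeR), and without that replicate it was -0.35 (SE 0.08 and adjusted p = 0.0395). Atp5k, the small e subunit of the membrane part, had the most negative value, -0.49 (SE 0.22 and adjusted p = 0.322), at 4.40 ± 0.96 nRPKM (SD, n = 7) and 3.12 ± 0.89 (SD, n = 6).

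The alpha to epsilon subunits of the ATP synthase form its catalytic head (Atp5a1 and Atp5b) and central stalk (Atp5c1, Atp5d and Atp5e). All 5 values were negative, from -0.37 to -0.06, and Atp5d (-0.19, SE 0.08) and Atp5e (-0.37, SE 0.16) were at an unadjusted p of 0.05 or less, with adjusted p-values of 0.253 and 0.293 in edgeR. Atp5b, the most abundant, had -0.11 (SE 0.05 and adjusted p = 0.359). The largest positive value of all members was that of Atp5s, with 5.12, 5.94 and 7.97 nRPKM in PS2APP;Trem2wt and 5.33, 7.52 and 8.56 in PS2APP;Trem2ko mice, a log2 fold change of 0.22 (SE 0.12 and adjusted p = 0.433 in edgeR), with the genotypes overlapping.

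On chromosome X lie 3 members. Beside Ndufa1, Ndufb11, a membrane-arm subunit of complex I, had a log2 fold change of -0.20 (SE 0.12) and Cox7b, of complex IV, one of -0.18 (SE 0.15). On chromosome 17, as Trem2, lie 6 members, at 8.36 to 35.1 Mb from it, with log2 fold changes of -0.16 to -0.06 and adjusted p-values of 0.428 or more in edgeR.

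The values differed with transcript length within the set. For each gene the length of the transcript with the longest coding sequence was taken from GENCODE M21. In the 36 tested members under 750 bases the median log2 fold change was -0.24 and 35 were negative. In the 41 of 750 bases or more it was -0.08 and 34 were negative. Among the tested protein-coding genes that are no members, the 328 under 750 bases had a median of -0.06 with 62.2% negative, and the 12687 longer ones a median of 0.00 with 49.4% negative. Within the 328, the 30 cytosolic ribosome genes had a median of -0.14 with 24 negative. The 13 mitochondrial ribosome genes under 750 bases had a median of -0.15 with 11 negative. Across the 77 members log2 length and log2 fold change had a Pearson r of 0.49 and a Spearman rho of 0.57, across genes that share the same 13 libraries and are not independent replicates, against -0.04 and -0.07 over 13015 other protein-coding genes. Of the 19 members at an unadjusted p of 0.05 or less, 15 were under 750 bases. The position of the other short genes by mouse, taken as for the members, was 0.05 ± 0.15 (SD, n = 7) in PS2APP;Trem2wt cells and -0.03 ± 0.16 (SD, n = 6) in PS2APP;Trem2ko, and the 3 deep libraries lay between -0.25 and -0.15. The part of transcript length in the members' difference was not tested.

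**Figure D5:**
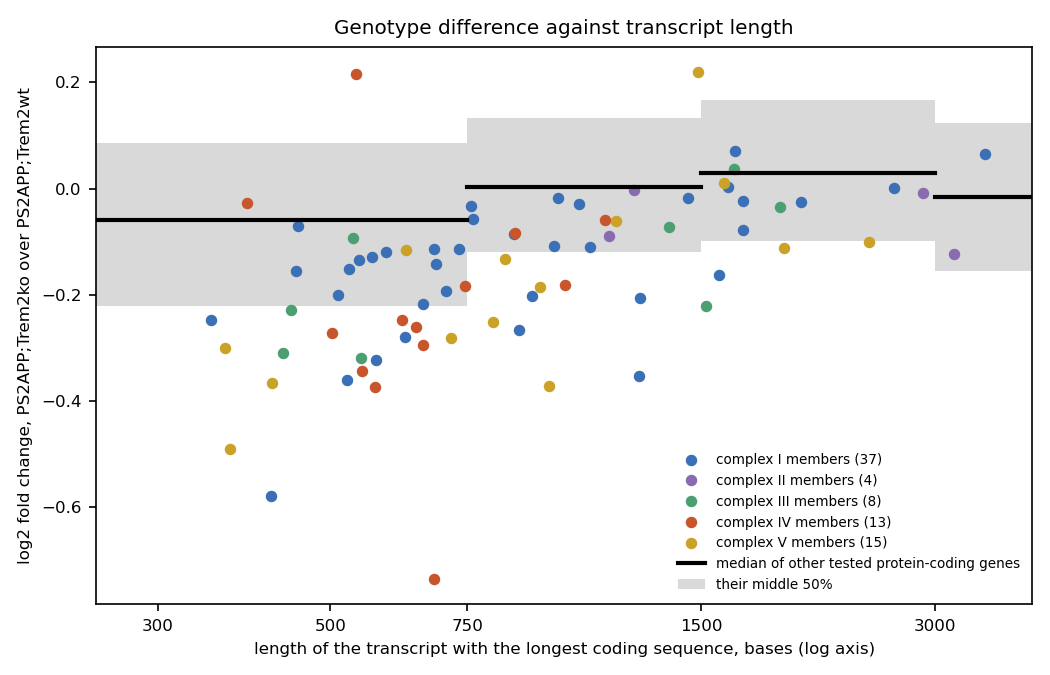
Log2 fold change (PS2APP;Trem2ko over PS2APP;Trem2wt) of the 77 tested members against the length of the transcript with the longest coding sequence (log axis), colored by complex; black lines and grey bands give the median and the middle 50% of the other tested protein-coding genes in 4 length ranges. Members under 750 bases have a median of -0.24, and the other genes of that length one of -0.06.

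The same complexes hold 13 subunits coded by mitochondrial DNA. Of these 9 passed the filter, and 0 were higher or lower at an adjusted p of at most 0.05 in edgeR, with 0 at an unadjusted p of 0.05 or less. By voom+limma and by DESeq2 0 were called as well. Their median log2 fold change was 0.03, and 6 of 9 were positive. The lowest value was that of mt-Nd5, a proton-pumping subunit of complex I, at -0.08 (SE 0.15), and the highest that of mt-Co3, of complex IV, at 0.25 (SE 0.32). Counts were only 4 to 48 per mouse for mt-Co3 and 6 to 37 for mt-Atp6, which is also among the 9. Levels differed widely between these genes. mt-Cytb, the cytochrome b of complex III, and mt-Nd1 had 645 and 527 nRPKM and no shared stretch, whereas mt-Co2, mt-Atp6, mt-Co3, mt-Nd3 and mt-Nd4l, with 98.0% to 100% of their 50-base stretches in other genes, had between 0.0178 and 0.266 nRPKM. Partly shared genes lay in between, with mt-Co1 (51.1% shared) at 106 nRPKM and mt-Nd4 (62.2%) at 91.8, above mt-Nd2 (8.19%) at 64.3 and mt-Nd5 (7.61%) at 90.8. mt-Nd6, with no shared stretch, had 133 nRPKM. mt-Atp8, a gene of 204 bases, had counts of 0 to 10 and no stretch shared with an annotated transcript. It lies between mt-Co2 and mt-Atp6, which are nearly fully shared, and copies that are not annotated were not searched. The nuclear and mitochondrial subunits can thus be set side by side here only for part of the mitochondrial list.

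Other genes of the organelle were counted from lists of such genes. For the counts below, 7.29% of all tested genes were higher and 7.56% lower at an unadjusted p of 0.05 or less (edgeR). No gene of any of these lists was higher or lower at an adjusted p of at most 0.05 in edgeR or voom+limma, and DESeq2 called 1, Rpl9 of the cytosolic ribosome. Among 45 tested assembly factors the median log2 fold change was 0.03, and 4 were higher and 2 lower at an unadjusted p of 0.05 or less, among them Tmem126b, which helps assemble complex I (0.22, SE 0.07, adjusted p = 0.168 in edgeR), and Foxred1 (0.28, SE 0.10, adjusted p = 0.182). The 2 lower ones were Sdhaf3, an assembly factor of complex II (-0.40, SE 0.13, adjusted p = 0.158 in edgeR), and Coa5, of complex IV (-0.16, SE 0.07, adjusted p = 0.325). Among 77 mitochondrial ribosome genes the median was -0.03, with 1 higher and 5 lower at an unadjusted p of 0.05 or less. Among 18 genes of the citric acid cycle it was 0.01, among 14 electron carriers and exchangers -0.03, and among 12 regulators of mitochondrial biogenesis -0.02, with 0, 0 and 1 at an unadjusted p of 0.05 or less. That 1 regulator was Yy1, higher in PS2APP;Trem2ko cells (0.34, SE 0.16, adjusted p = 0.326 in edgeR). The 68 tested cytosolic ribosome genes, which are no part of the mitochondrion, had a median of -0.10 with 55 negative, 2 higher and 3 lower at an unadjusted p of 0.05 or less. Their position by mouse was also low in the 3 deep libraries, between -0.31 and -0.16.

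The members varied together from mouse to mouse. After each gene's log2 CPM was taken relative to its genotype mean, the median Pearson r over the 2926 pairs of tested members was 0.54 across 13 mice, against 0.00 over all pairs of the 17086 tested genes. It was 0.59 within complex I, 0.25 within complex II, 0.63 within complexes III and IV and 0.38 within complex V. The mitochondrial ribosome had a median of 0.29, the cytosolic ribosome 0.25 and the assembly factors 0.05, while the 9 tested mitochondrially coded genes had 0.87. Pairs of a member with a cytosolic ribosome gene had 0.34, and pairs of a member with a mitochondrially coded gene 0.24. Cox6b1 (0.96), Ndufb6 (0.95), Cox4i1 (0.94) and Ndufb9 (0.94) followed the mean of the other members most closely, and Ndufs1 (-0.43), Ndufab1 (-0.41) and Cox7c (-0.23) ran against it. Genes of 1 mouse share a library, its depth and its RNA, so these correlations describe the 13 libraries and carry no p.

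Sex was the other label that differed between mice, with 10 females and 3 males, and 2 of the 3 males were among the 3 deep libraries. With genotype in the model, 0 of the 77 members were higher and 0 lower in males at an adjusted p of at most 0.05 in edgeR, where 0.0234% of all tested genes were called in either direction. At an unadjusted p of 0.05 or less, 8 were lower in males and 0 higher, against 3.49% lower over all tested genes, and 72 of 77 log2 fold changes were negative with a median of -0.17, beside 0.00 over all tested genes. By voom+limma 0 were called, and by DESeq2 1 was, Ndufs4, an accessory subunit of complex I. Its nRPKM was 11.2, 12.9 and 13.6 at the lowest, median and highest of the 10 females and 10.04 to 10.5 in the 3 males. The shallowest male library was the one at 10.5. The share of all tested genes that separate the 3 males from the 10 females is not given here, nor is the share that DESeq2 called by sex. The log2 fold change of males over females was -0.32 (SE 0.08 and adjusted p = 0.699 in edgeR and 0.0372 in DESeq2).

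Promoters were read from the RefSeq table (GRCm38.p6), which runs from 250 bases before to 50 bases after a gene's start and held 67 of the 85 members. Short words of 3 factors known for nuclear genes of the mitochondrion were searched on both strands: GCGCATGC for NRF1, CCGGAAGT for ETS factors such as GABPA, and AAGATGGC for YY1. The NRF1 word was in 10 of 67 members (14.9%) and in 3.05% of all 27025 genes in the table, the ETS word in 5 (7.46%) and 4.31%, and the YY1 word in 9 (13.4%) and 3.19%. In all, 23 of the 67 held at least 1 of the 3 words, Uqcr11 holding more than 1. A match is a description of these letters and not a binding site.

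The upstream sequences of 3 genes that had the smallest p of their complexes are shown, minus strand, 5′ to 3′, ending before the first base that GENCODE places in the gene, with matched words in capitals. They are Cox6a1 (chr5:115348982-115349208), Uqcrh (chr4:116075072-116075320) and Ndufa1 (chrX:37191239-37191488).
Cox6a1: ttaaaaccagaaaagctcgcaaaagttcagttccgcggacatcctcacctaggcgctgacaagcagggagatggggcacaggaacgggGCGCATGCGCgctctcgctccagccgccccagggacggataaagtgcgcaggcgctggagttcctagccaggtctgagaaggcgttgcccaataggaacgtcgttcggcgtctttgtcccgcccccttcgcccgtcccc
Uqcrh: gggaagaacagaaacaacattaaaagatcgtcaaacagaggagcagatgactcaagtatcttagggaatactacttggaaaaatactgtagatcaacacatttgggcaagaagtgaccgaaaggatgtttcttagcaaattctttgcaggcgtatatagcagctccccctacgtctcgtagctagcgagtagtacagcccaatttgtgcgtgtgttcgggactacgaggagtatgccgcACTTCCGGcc
Ndufa1: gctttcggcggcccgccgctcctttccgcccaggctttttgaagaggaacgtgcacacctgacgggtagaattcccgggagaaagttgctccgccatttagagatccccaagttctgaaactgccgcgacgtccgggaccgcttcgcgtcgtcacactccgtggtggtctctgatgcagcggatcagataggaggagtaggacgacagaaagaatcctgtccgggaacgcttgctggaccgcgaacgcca
Cox6a1 held the NRF1 word on both strands, in overlapping matches that start 162 and 160 bases before the RefSeq start and together span the 10 capitals. Uqcrh held the ETS word, read on the other strand, starting 11 bases before it, and Ndufa1 held none of the 3 in this window.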

How the data were processed

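RNA-Seq libraries were made from a few ng of RNA of sorted cells with a low-input kit and sequenced as single-end 50-base reads. The authors aligned reads to GRCm38 with GSNAP (version not given in the sources used here) and deposited, for each mouse, the number of uniquely aligned reads of each gene (counts, not normalized) and nRPKM, which is RPKM rescaled by a size factor. Names and coordinates come from GENCODE M21.

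The deposited counts were filtered with edgeR 4.0.16 (filterByExpr by genotype, 17086 genes kept), scaled by TMM and tested with glmQLFit and glmQLFTest in R 4.3.3, with genotype alone, and with genotype plus sex for the sex comparison. P-values were adjusted by Benjamini-Hochberg over all tested genes, and 0.05 was the threshold. SEs were obtained as the absolute log2 fold change over the square root of F. The study used voom+limma, run here as an alternative (limma 3.58.1), beside DESeq2 1.42.0, RLE scaling, no filter, 10 counts in 6 mice, a sex term, the females alone, an adjusted p of 0.1, limma on log2(nRPKM + 0.1) and log2(nRPKM + 1), and each mouse left out. Leaving out the 3 deepest libraries, the log2 total count as a covariate and thinned counts were added after the data were seen. Shared sequence is the percentage of the 50-base words in a gene's transcripts found, in either orientation, in transcripts of a gene elsewhere. Words shared with a gene that overlaps the member were counted apart. Copies that are not annotated are missed. The test was first run on simulated data with known fold changes. Other values were computed in Python 3.11.15.

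Members were named where they had an adjusted p of 0.05 or less, did not overlap between genotypes, had the highest level or smallest p of their complex, had 1 of the 3 largest changes in a direction, had isoforms or were X-linked. Other members in the text were named after their values were seen. The members and lists were chosen with earlier results of these data known. Replicate numbers follow the order of the samples and pair no mice. Counts and medians cover every member, but 1 member is not reported by itself here.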

Additional observations from a re-analysis of the deposited data

Results flagged for a closer look

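In PS2APP;Trem2wt replicate 3, Uqcrc1, a core protein of complex III, had 107 nRPKM while the other 6 PS2APP;Trem2wt mice lay between 90.7 and 97.5, a gap larger than Dixon's 95% limit for a group of that size. It was the 1 value marked in 48 groups examined (24 tested members named by rule, in 2 genotypes), where chance marks about 1 in 20 groups.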

How the results depend on the processing

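No member was called higher in PS2APP;Trem2ko cells, and none of the 9 tested mitochondrially coded genes was called, under any alternative run. The number called lower was 0 and became 2 with DESeq2 (Ndufa1 and Cox6a1), 2 at an adjusted p of 0.1, and between 0 and 1 when each mouse was left out, being 1 without PS2APP;Trem2ko replicate 2 (Cox6a1), without PS2APP;Trem2wt replicate 4 (Ndufa1) and without PS2APP;Trem2wt replicate 7 (Atp5g3). The cause was not tested. Shares of all tested genes called under these alternatives are not given here, so these numbers cannot be set against them. The number lower in males was 0 and became 1 with DESeq2 (Ndufs4), and stayed 0 when each male was left out. The median log2 fold change of the tested members was negative in every fit, between -0.18 and -0.10 with each mouse left out and at its weakest -0.08 with the log2 total count as a covariate. For the 24 tested members named by rule, 580 of 600 values under alternatives kept their direction and their side of the threshold, 5 passed it, and 15 changed direction with no call before or after. The 8 untested genes had at most 29 counts in any mouse, and the shared sequence of Atp5l and the other 10 genes above 20% makes their levels uncertain. Per the study's methods, mice were mostly handled in pairs of 1 per genotype between perfusion and sorting. No paired analysis was possible because the labels do not say which mice formed a pair, so no fit here takes the pairs into account.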

Other observations

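The sum of the neutrophil markers, 2 of whose 4 genes passed the filter, was between 5.52 and 117 nRPKM in PS2APP;Trem2wt mice and between 0.122 and 17.2 in PS2APP;Trem2ko mice, and neither of the 2 tested genes was called. Ndufab1, the mitochondrial acyl carrier protein, which also serves fatty acid synthesis in the organelle, had 2.27 ± 0.17 nRPKM (SD, n = 7) in PS2APP;Trem2wt cells and 2.38 ± 0.24 (SD, n = 6) in PS2APP;Trem2ko cells, and its log2 fold change was 0.07 (SE 0.09 and adjusted p = 0.785 in edgeR).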
